A study of Mus musculus with 6 samples.

Results

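The genes described here are 41 markers of vascular endothelium and of the signalling that keeps vessels intact, read by symbol from a count table of 17973 mRNAs in mouse lung. All 41 were in the table and all 41 passed the filter on low counts, which kept 15808 mRNAs. RNA came from whole lungs of C57BL/6 mice, with 3 libraries from the control group, named C7, C8 and C9, and 3 from the group with silicosis, named N129, N136 and N138. The silicosis mice had 8 mg of silica, suspended in 40 µL of saline, placed once into the trachea, and the lungs were frozen at 90 days. The labels call the other group control, and the series text speaks of a sample given sterile saline. The labels leave out sex and age. Whether each library is a mouse of its own is not stated either, so a p-value reflects only how far these samples spread, and that spread may be technical.

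Endothelial cells line every blood vessel, and in the lung they form the dense capillary bed across which gas is exchanged. They are held together by VE-cadherin and claudin-5 junctions, kept quiescent by angiopoietin-1 acting on the receptor Tie2, and kept alive by vascular endothelial growth factor (VEGF), which alveolar epithelium makes. ETS, SOX and GATA transcription factors hold the endothelial programme, and Notch signalling and the receptor COUP-TFII set arterial against venous identity.

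Libraries held between 33698920 and 44000748 mRNA counts. Levels are CPM, counts scaled to a common library total after TMM normalisation, and a log2 fold change is silicosis over control with its standard error (SE) from edgeR. A gene is said to have fallen or risen where its edgeR adjusted p, corrected over all 15808 mRNAs, was under 0.05. Markers of lung epithelium were present in every library, with Sftpc between 7553 and 11749 CPM and Ager between 495 and 1339 CPM.

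Endothelial RNA was lower in every silicosis library than in any control library. Summed over the 41 genes it was 13993, 14140 and 13620 CPM in C7, C8 and C9, and 7983, 8174 and 8129 CPM in N129, N136 and N138. The group means were 13918 ± 268 and 8096 ± 99.9 CPM (SD, n = 3), so the silicosis mean was 58.2% of the control mean. CPM is a share of the RNA in a library. In whole-lung RNA, fewer endothelial cells, less of these RNAs per cell and more RNA from other cells cannot be told apart. Of the 41 genes, 34 fell, 7 did not pass and 0 rose, where 16.5% of all tested mRNAs were called lower and 15.3% higher (31.8% either way). All 41 log2 fold changes were below 0, between -1.34 and -0.04, so none was higher at an unadjusted p under 0.05 in edgeR, and DESeq2 and limma-voom also called 0 higher. The median was -0.63, against 0.02 over all tested mRNAs. In 35 of the 41 the groups did not overlap, with silicosis lower, as in 24.0% of all tested mRNAs, and in 0 of the 41 was silicosis higher without overlap, as in 23.7% of all. The fall was 2-fold or more in 7 of the 41, namely Gata2, Cdh5, Ramp2, Eng, Erg, Plvap and Nr2f2, and in 3.03% of all tested mRNAs. Tested against a minimum fold of 1.2, 23 members passed. Of the 34 that fell, the 11 that did not pass this stricter test were Tie1, Calcrl, S1pr1, Fli1, Sox17, Tal1, Egfl7, Rasip1, Vwf, Gja5 and Ephb4, with edgeR adjusted p from 0.0663 for Gja5 to 0.229 for Fli1. In the authors' deposited table, adjusted p is under 0.05 with a negative fold change for 35 of the 41, and for 16.6% of the 17265 genes with an adjusted p. The same 7 genes that fell 2-fold or more are labelled Down in the authors' deposited table, as are 3.05% of its genes.

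**Figure D1:**
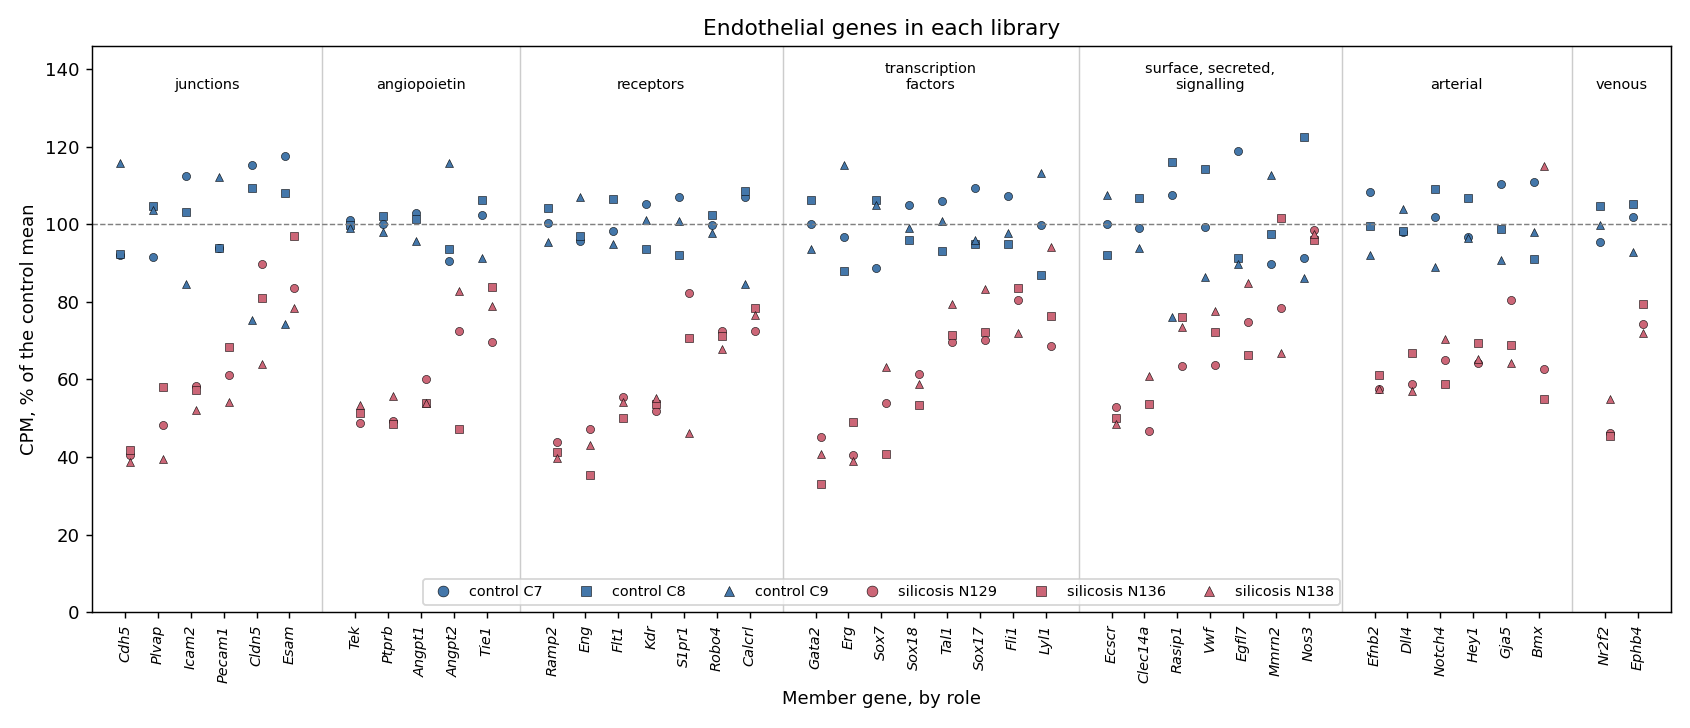
CPM of each endothelial gene in each library as a percentage of the gene's control mean, grouped by role; blue points are the 3 control and red points the 3 silicosis libraries. The silicosis points lie below all control points for 35 of the 41 genes, and those of Nos3 lie among the controls.

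Genes of cell junctions and the vessel surface were lower, with a spread from a steep fall to no call. Cdh5, which encodes VE-cadherin, the adhesion protein of endothelial junctions, had 1202, 1205 and 1513 CPM in the controls and 529, 546 and 506 CPM in N129, N136 and N138. Silicosis levels were thus all under the lowest control, and Cdh5 fell by 1.31 on the log2 scale (SE 0.12, edgeR adjusted p = 0.000118). Plvap, which forms the diaphragms of fenestrae and caveolae, had 417, 476 and 471 CPM in the controls and 220, 264 and 179 CPM in silicosis. The groups were apart, and Plvap fell by 1.04 (SE 0.14, edgeR adjusted p = 0.000803). Pecam1, a homophilic adhesion receptor also carried by platelets and leukocytes, fell by 0.71 (SE 0.12), and Icam2, an adhesion ligand for leukocytes, fell by 0.84 (SE 0.12). Cldn5, the tight junction claudin of endothelium, and Esam, an adhesion molecule of tight junctions, did not pass, with log2 fold changes of -0.35 (SE 0.18) and -0.21 (SE 0.16). In both genes 1 control stood low. Cldn5 had 315, 299 and 206 CPM in C7, C8 and C9 against 175 to 245 CPM in silicosis, and Esam had 189, 174 and 119 CPM against 126 to 156 CPM. Without C9 both were called lower, at -0.52 and -0.39, with edgeR adjusted p of 0.0341 and 0.0439. Other settings moved them the other way, Cldn5 to -0.23 without N138 and -0.20 with a GC trend removed, and Esam to -0.08 without C7 and -0.14 with a GC trend removed.

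The angiopoietin pathway was lower at the level of the agonist, the receptor and the receptor's phosphatase. Angpt1, the ligand that activates Tie2, had 74.9, 73.7 and 69.7 CPM in the controls and 43.8, 39.3 and 39.3 CPM in silicosis. It fell by 0.84 (SE 0.09, edgeR adjusted p = 0.000303), with no overlap. Of 50-base windows of its transcript, 16.4% also occur in transcripts of other genes, and an antisense gene, Gm17473, overlaps it. Tek, which encodes Tie2, had 453, 448 and 444 CPM in the controls and 218, 230 and 239 CPM in silicosis, a fall of 0.97 (SE 0.08, edgeR adjusted p = 0.000112). The 3 controls lay within a few percent of one another, and the silicosis libraries at about 51.1% of them in the fit. Ptprb, the vascular phosphatase that restrains Tie2 and VE-cadherin phosphorylation, went from 2413, 2461 and 2362 CPM to 1188, 1168 and 1344 CPM, a fall of 0.97 (SE 0.10, edgeR adjusted p = 0.000218).

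Angpt2, the antagonist that endothelium releases when activated, had 33.4, 34.5 and 42.6 CPM in the controls and 26.7, 17.3 and 30.5 CPM in silicosis. The groups did not overlap, but the difference did not pass (log2 fold change -0.57, SE 0.20, edgeR adjusted p = 0.0543). It did pass without N138 (-0.74, edgeR adjusted p = 0.0176), without a filter on low counts, with DESeq2 and with limma-voom. Without N136 the value was -0.37 (edgeR adjusted p = 0.0896) and without C9 -0.45 (edgeR adjusted p = 0.166). The count ratio of Angpt2 to Angpt1 within a library was 0.445, 0.468 and 0.612 in the controls and 0.609, 0.442 and 0.775 in silicosis, so the groups overlapped (two-sided exact permutation p = 0.7). Tie1, the orphan partner of Tie2, fell by 0.37 (SE 0.10, edgeR adjusted p = 0.025), a smaller change than that of Tek. The Tie1 call ended without C7, C8 or N129, with edgeR adjusted p of 0.0841, 0.097 and 0.103, and with a GC trend removed (-0.26, edgeR adjusted p = 0.0849). Within a library the ratio of Tie1 to Tek counts was 0.646, 0.678 and 0.587 in the controls and 0.912, 1.04 and 0.943 in silicosis. These groups did not overlap, and the two-sided exact permutation p was 0.1, the smallest that 3 against 3 can give. Of 11 such ratios, all chosen after the values were seen, 9 reached that p, and it was 0.122 when adjusted over the 11.

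Receptors for vessel growth and barrier signals were lower throughout: 7 of 7 fell. Ramp2, the protein that turns the calcitonin receptor-like receptor into an adrenomedullin receptor, had 176, 183 and 168 CPM in the controls and 77.2, 72.6 and 69.7 CPM in silicosis. It fell by 1.26 (SE 0.09, edgeR adjusted p = 4.42e-05), and all silicosis libraries were at less than the lowest control. Ramp2 shares 73.8% of its windows with other genes' transcripts and overlaps Vps25 on the same strand, so part of its counts may be uncertain. Its partner Calcrl, the receptor itself, fell by 0.40 (SE 0.12, edgeR adjusted p = 0.0292), and that call ended without C7, C8 or N129 (edgeR adjusted p = 0.111, 0.113 and 0.101). With a GC trend removed Calcrl was called at -0.63. Per Ramp2 count there were 8.11, 7.91 and 6.73 Calcrl counts in the controls and 12.6, 14.4 and 14.7 in silicosis, again with no overlap (two-sided exact permutation p = 0.1).

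Eng, or endoglin, the co-receptor for BMP9 and TGF-beta, had 611, 620 and 684 CPM in the controls and 302, 226 and 275 CPM in silicosis, and fell by 1.25 (SE 0.12, edgeR adjusted p = 0.000175). The main VEGF receptor Kdr and the decoy-like receptor Flt1 fell by nearly the same amount, 0.90 (SE 0.09) and 0.91 (SE 0.09). Their count ratio overlapped between groups, at 0.570 to 0.695 in the controls and 0.568 to 0.653 in silicosis. Robo4, a receptor that stabilises vessels, fell by 0.51 (SE 0.08). S1pr1, the receptor through which sphingosine 1-phosphate tightens the barrier, fell by 0.59 (SE 0.18, edgeR adjusted p = 0.0369). Its silicosis libraries were spread, at 265, 228 and 149 CPM against 297 to 345 CPM in the controls. The S1pr1 call ended without C7, C8, C9 or N136, with edgeR adjusted p of 0.107, 0.0626, 0.0878 and 0.0565, and with a GC trend removed (0.0524). Without N138 it was called at -0.39.

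Of 8 endothelial transcription factors 7 fell, Gata2 and Erg by over 2-fold. Gata2, a factor of endothelium, of blood stem cells and of mast cells, had 175, 186 and 164 CPM in the controls and 79.0, 57.7 and 71.1 CPM in silicosis. That is a fall of 1.34 (SE 0.12, edgeR adjusted p = 0.000142), within the error of that of Cdh5. Erg, the ETS factor that maintains Cdh5 and other junction genes, had 130, 119 and 155 CPM in the controls and 54.7, 66.01 and 52.7 CPM in silicosis, a fall of 1.22 (SE 0.13, edgeR adjusted p = 0.000265). Fli1, the ETS factor closest to Erg and also expressed in blood cells, fell by 0.35 (SE 0.10, edgeR adjusted p = 0.0231), a call that ended without C7, N129 or N138 (edgeR adjusted p = 0.0946, 0.0612 and 0.0576). Fli1 counts per Erg count were 0.927, 0.903 and 0.709 in the controls and 1.66, 1.43 and 1.54 in silicosis. In counts, Erg was thus the higher of the pair in each control and Fli1 in each silicosis library (two-sided exact permutation p = 0.1).

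Among the SoxF factors, which act together in artery and lymphatic formation, Sox7 fell by 0.93 (SE 0.16), Sox18 by 0.79 (SE 0.09) and Sox17 by 0.41 (SE 0.10, edgeR adjusted p = 0.016). The Sox17 call ended without C7 or N129 (edgeR adjusted p = 0.07 and 0.0656), and 23.6% of its windows are shared with other transcripts. The stem cell leukaemia factor Tal1 fell by 0.45 (SE 0.11, edgeR adjusted p = 0.0141), and without C7 or N129 the adjusted p was 0.0614 and 0.06. Its relative Lyl1 did not pass (-0.33, SE 0.16, edgeR adjusted p = 0.143), but was called lower without N138 (-0.46, edgeR adjusted p = 0.0462) and was at -0.16 with a GC trend removed. Gata2, Tal1 and Lyl1 are also expressed in mast cells and other blood cells. Of 10 genes listed as markers of mast cells and basophils, Mcpt4, Mcpt8, Tpsb2, Fcer1a, Ms4a2 and Gata1 had means under 1 CPM, and Cpa3 had 2.75 to 5.04 CPM. The list's summed level was 395 to 413 CPM in the controls and 295 to 378 CPM in silicosis. Most of it came from Kit, which lung capillary endothelium also expresses. Of 9 tested genes of the list 1 fell, Kit (-0.38, SE 0.12), where 16.5% of all tested mRNAs fell. Hdc, with 59.6 to 81.3 CPM in the controls and 80.3 to 90.7 CPM in silicosis, did not pass (0.23, SE 0.12). Red cell markers summed to 47.7 to 121 CPM in the controls and 22.0 to 33.2 CPM in silicosis, and 2 of 5 fell, Alas2 with a log2 fold change of -1.38 and Slc4a1 with -1.91. The part of blood cells in the values of Gata2, Tal1 and Lyl1 was not tested.

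The promoters of members were read for the letters of motifs known for ETS, GATA, SOX and E-box factors and for RBPJ. RefSeq windows (GRCm38.p6, an earlier build than the authors') were found for 22 of the 41 genes, 28 windows in all, and the 250 bases before each start were searched on both strands. The vascular ETS motif ACAGGAAG was in 3 of 28 windows (10.7%), in Egfl7 and Calcrl, and in 2.9% of all 32851 windows. The other ETS form, CCGGAAGT, was in 0 of 28 and in 2.88% of all windows. The bare ETS core GGAA, which both forms contain, was in 92.9% of member windows and 93.4% of all. The letters AGATAA, bound by GATA factors, were in 7.14% of member and 9.99% of all windows, the SOX letters ACAATG in 10.7% and 10.7%, the E-box CAGCTG in 7.14% and 13%, and TGGGAA, bound by the Notch effector RBPJ, in 21.4% and 21.6%. A match is a description of letters and not a site of binding. The following 200-base stretches, from 250 to 51 bases before the start, belong to Egfl7, which has an ETS match, and to 4 other members that fell. The matching Calcrl window is not printed here. Capitals mark matches to the motifs above other than the bare GGAA core.
Egfl7 (chr2:26583615-26583814, plus strand): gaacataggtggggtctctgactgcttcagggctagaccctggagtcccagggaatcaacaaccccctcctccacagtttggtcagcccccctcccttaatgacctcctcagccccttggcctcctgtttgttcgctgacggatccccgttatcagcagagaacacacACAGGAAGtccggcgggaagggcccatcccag
Erg (chr16:95459399-95459598, minus strand): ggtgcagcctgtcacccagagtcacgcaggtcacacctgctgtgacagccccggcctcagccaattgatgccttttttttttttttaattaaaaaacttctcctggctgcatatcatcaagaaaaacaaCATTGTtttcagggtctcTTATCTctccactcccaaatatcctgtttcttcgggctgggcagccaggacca
Gata2 (chr6:88193641-88193840, plus strand): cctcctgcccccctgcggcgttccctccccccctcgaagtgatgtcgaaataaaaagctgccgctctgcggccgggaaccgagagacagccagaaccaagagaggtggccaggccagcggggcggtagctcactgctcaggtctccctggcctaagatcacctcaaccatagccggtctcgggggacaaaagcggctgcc
Eng (chr2:32646345-32646544, plus strand): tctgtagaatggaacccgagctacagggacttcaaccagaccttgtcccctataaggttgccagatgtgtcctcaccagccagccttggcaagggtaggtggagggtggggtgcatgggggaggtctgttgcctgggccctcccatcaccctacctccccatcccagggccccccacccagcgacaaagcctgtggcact
Tek (chr4:94739039-94739238, plus strand): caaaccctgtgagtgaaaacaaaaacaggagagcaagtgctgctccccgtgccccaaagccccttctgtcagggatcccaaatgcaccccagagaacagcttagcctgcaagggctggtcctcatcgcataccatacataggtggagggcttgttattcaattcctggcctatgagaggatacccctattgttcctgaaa

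The Egfl7 stretch holds ACAGGAAG on the gene's own strand, 82 bases before the start, and 2 of the gene's 3 windows hold that motif. The Erg stretch, also 1 of 3 starts, holds the SOX and GATA letters on the opposite strand, 121 and 103 bases before the start. In the Gata2, Eng and Tek stretches no motif longer than the bare core was found.

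Surface, secreted and signalling genes ranged from clear falls to no call. Ecscr, a small surface protein of endothelium, had 44.4, 40.8 and 47.7 CPM in the controls and 23.4, 22.2 and 21.4 CPM in silicosis, and fell by 0.99 (SE 0.10, edgeR adjusted p = 0.000245). Clec14a, a C-type lectin of vessels, had 394, 425 and 374 CPM in the controls and 186, 213 and 242 CPM in silicosis. It fell by 0.90 (SE 0.11, edgeR adjusted p = 0.00062), with the groups well apart. Its binding partner in the vessel matrix, Mmrn2, did not pass (-0.28, SE 0.16, edgeR adjusted p = 0.2), with 75.2 CPM in N136 against 66.5 to 83.5 CPM in the controls. Without N136, Mmrn2 was called lower (-0.47, edgeR adjusted p = 0.0297), and without N138 it was at -0.15. Egfl7, a secreted vessel factor whose gene also encodes miR-126, fell by 0.41 (SE 0.14, edgeR adjusted p = 0.0465). That call ended without C7, C8, N129 or N136 (edgeR adjusted p = 0.165, 0.0626, 0.116 and 0.124) and with a GC trend removed (0.133). Its value was -0.27 without C7. Rasip1, a regulator of vessel lumen formation, fell by 0.49 (SE 0.15, edgeR adjusted p = 0.0378), and its call ended when any library but C9 was left out, with adjusted p between 0.0506 and 0.135, and with a GC trend removed (-0.30, edgeR adjusted p = 0.137). It also shares 34.4% of its windows with other transcripts.

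Vwf, the von Willebrand factor stored in endothelium and platelets, had 943, 1083 and 820 CPM in the controls and 604, 685 and 737 CPM in silicosis, and fell by 0.49 (SE 0.13, edgeR adjusted p = 0.0171). The call ended without C7, C8 or N129 (edgeR adjusted p = 0.0533, 0.0729 and 0.0707). Platelet markers were read beside it. Of 9 tested megakaryocyte and platelet genes 4 fell, where 16.5% of all tested mRNAs fell. The other 5 did not pass, with log2 fold changes from -1.34 for Gp9 to -0.02 for Clec1b. The list's sum was 77.3, 55.3 and 121 CPM in C7, C8 and C9 and 40.4 to 57.7 CPM in silicosis, so the groups overlapped. The part of platelets in the Vwf values was not tested. Nos3, endothelial nitric oxide synthase, differed from the other members in that its CPM fold change was not called under any setting tried. It had 13.5, 18.1 and 12.8 CPM in the controls and 14.6, 14.2 and 14.4 CPM in silicosis (log2 fold change -0.04, SE 0.15, edgeR adjusted p = 0.871). Its direction turned without C8 (0.13) and with a GC trend removed (0.080). Nos3 counts are uncertain, since 32.3% of its exon bases overlap other genes, among them Atg9b on the opposite strand.

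**Figure D2:**
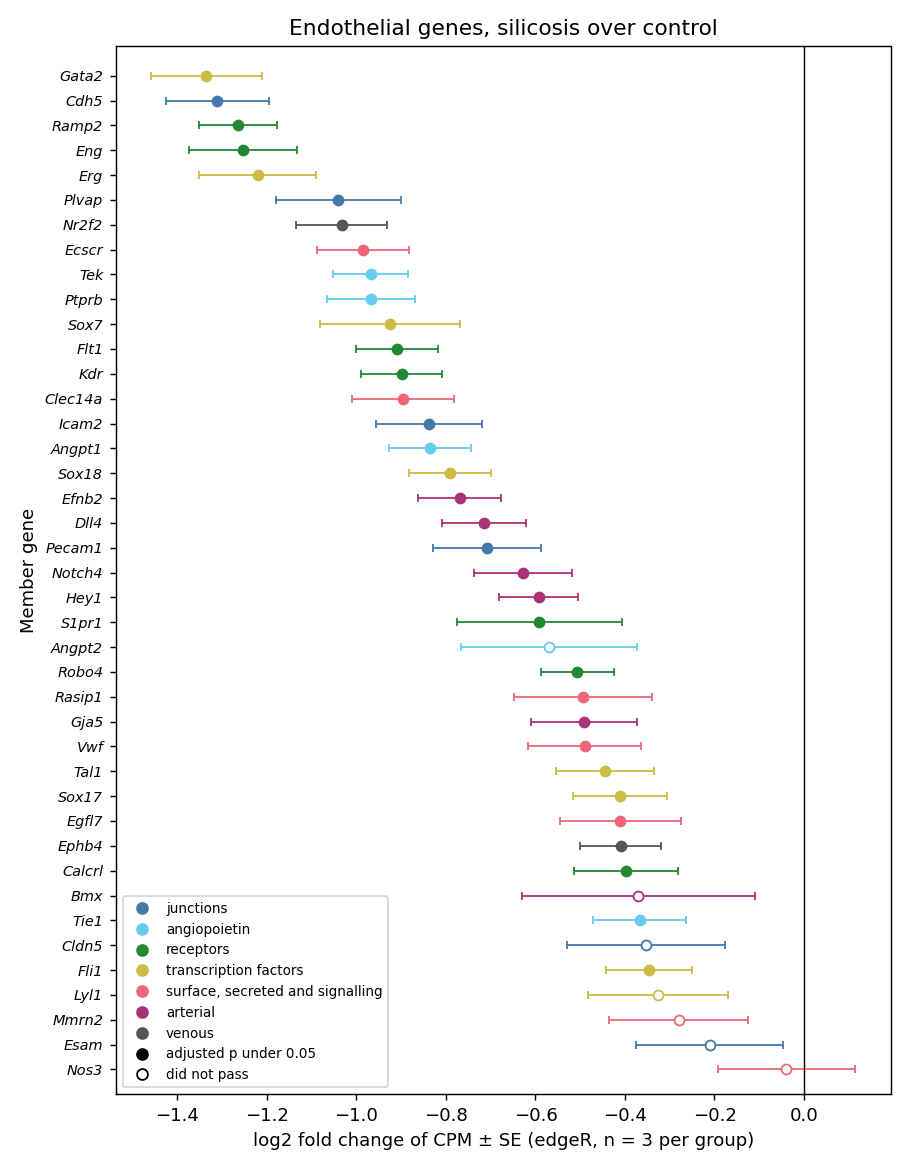
Log2 fold change of CPM, silicosis over control, with SE from edgeR (n = 3 per group), ordered from the largest fall to the smallest; colours give the role and open circles genes that did not pass. Gata2 lies at -1.34 and Nos3 at -0.04.

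Arterial and venous genes fell alike in direction. Of 6 arterial genes 5 fell. Efnb2, the ephrin that marks arteries, had 399, 367 and 340 CPM in the controls and 212, 225 and 212 CPM in silicosis, a fall of 0.77 (SE 0.09, edgeR adjusted p = 0.000485). Dll4, the Notch ligand of arteries and tip cells, had 106, 106 and 113 CPM in the controls and 63.8, 72.3 and 61.8 CPM in silicosis, and fell by 0.71 (SE 0.09, edgeR adjusted p = 0.000682). In both genes every silicosis library was under every control. The endothelial receptor Notch4 fell by 0.63 (SE 0.11) and the Notch target Hey1 by 0.59 (SE 0.09). Gja5, the arterial gap junction protein connexin 40, fell by 0.49 (SE 0.12, edgeR adjusted p = 0.0129), a call that ended without C7 (edgeR adjusted p = 0.0568), and 24.2% of its windows are shared. Bmx, an arterial tyrosine kinase, did not pass (-0.37, SE 0.26, edgeR adjusted p = 0.308). Its silicosis values were 7.69, 6.74 and 14.1 CPM against 11.2 to 13.6 CPM in the controls, and without N138 it was called lower (-0.77, edgeR adjusted p = 0.00837), while without N136 it was at -0.18.

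Both venous genes fell. Nr2f2, which encodes COUP-TFII, the factor that sets venous identity and is also expressed in lymphatics and mesenchyme, had 212, 233 and 222 CPM in the controls and 103, 101 and 122 CPM in silicosis. It fell by 1.03 (SE 0.10, edgeR adjusted p = 0.000189). Ephb4, the venous receptor for Efnb2, had 243, 251 and 221 CPM in the controls and 177, 189 and 172 CPM in silicosis, a fall of 0.41 (SE 0.09, edgeR adjusted p = 0.00855). The groups were apart in both. Ephb4 counts per Nr2f2 count were 1.14, 1.08 and 0.997 in the controls and 1.72, 1.87 and 1.41 in silicosis, without overlap (two-sided exact permutation p = 0.1).

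The fit was repeated with summed counts of 10 pan-endothelial genes as the library scale, to ask which members changed more or less than that sum. The 10 were Cdh5, Pecam1, Tie1, Esam, Erg, Egfl7, Ramp2, Eng, Robo4 and Mmrn2, each left out of the sum for its own fit. This sum in silicosis was 53.0% of that in controls in CPM. It leans on its most abundant genes, as Cdh5 alone gave 25.5% to 36.2% of it and Pecam1 20.9% to 26.7%. The median log2 fold change of the 10 genes in CPM was -0.61, against -0.92 for their sum. Relative to the sum 5 members were lower, where 0.924% of all mRNAs were, and 16 were higher, where 82.2% of all mRNAs were. The 5 were Cdh5 (-0.56, SE 0.12, edgeR adjusted p = 0.00134), Gata2 (-0.42, SE 0.15), Eng (-0.39, SE 0.14), Ramp2 (-0.37, SE 0.12) and Erg (-0.31, SE 0.12). Cdh5, Eng, Ramp2 and Erg were each set against a sum without themselves, and Gata2 against the full sum. The sizes of these values can therefore not be ranked against one another. Cdh5 stayed called under each setting tried, with values between -0.62 and -0.47. The count of 5 became 1 without C7, 2 without C8 and 3 without N136. Without C7, C8 or N136, edgeR adjusted p was 0.0608, 0.0674 and 0.0792 for Eng and 0.059, 0.0831 and 0.0767 for Gata2. For Ramp2 it was 0.0515 without C7 and 0.056 without C8. For Erg it was 0.075, 0.0628, 0.108 and 0.0701 without C7, C9, N129 or N138. The value of Eng was -0.24 without N136. With a geometric mean of the core, Ramp2 was at -0.57 and Erg at -0.52.

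The sum itself changed by -0.92 on the log2 scale in CPM. For genes outside the sum, this scale therefore shifts each CPM fold change by nearly the same amount. Largely by construction, the 5 lower relative to the sum were the members with the largest falls in CPM. They are no result apart from those falls. Also by construction, the members higher relative to the sum were mostly those with the smallest falls in CPM. Nos3 (0.87, SE 0.18, edgeR adjusted p = 0.000979), Esam (0.72, SE 0.19), Mmrn2 (0.65, SE 0.14), Lyl1 (0.60, SE 0.16), Tie1 (0.59, SE 0.14) and Fli1 (0.56, SE 0.11) were among those higher, and each was called in all 10 other settings. Esam, Mmrn2 and Tie1 were set against a sum without themselves, so these values are not ranked either. Calcrl, Sox17, Ephb4, Tal1 and Robo4 were also called higher in all 10, with Tal1 at 0.31 and Robo4 at 0.27 under the geometric mean. Kdr, Flt1, Sox7 and Clec14a differed from the sum by 0.02 or less, with SE between 0.12 and 0.17, and did not pass. Within the junction group, the Pecam1 to Cdh5 count ratio was 0.654, 0.652 and 0.622 in the controls and 0.970, 1.05 and 0.896 in silicosis. The Vwf to Cdh5 ratio was 0.784, 0.898 and 0.542 in the controls and 1.14, 1.26 and 1.46 in silicosis. In both ratios all silicosis libraries were above all controls (two-sided exact permutation p = 0.1 for each).

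**Figure D3:**
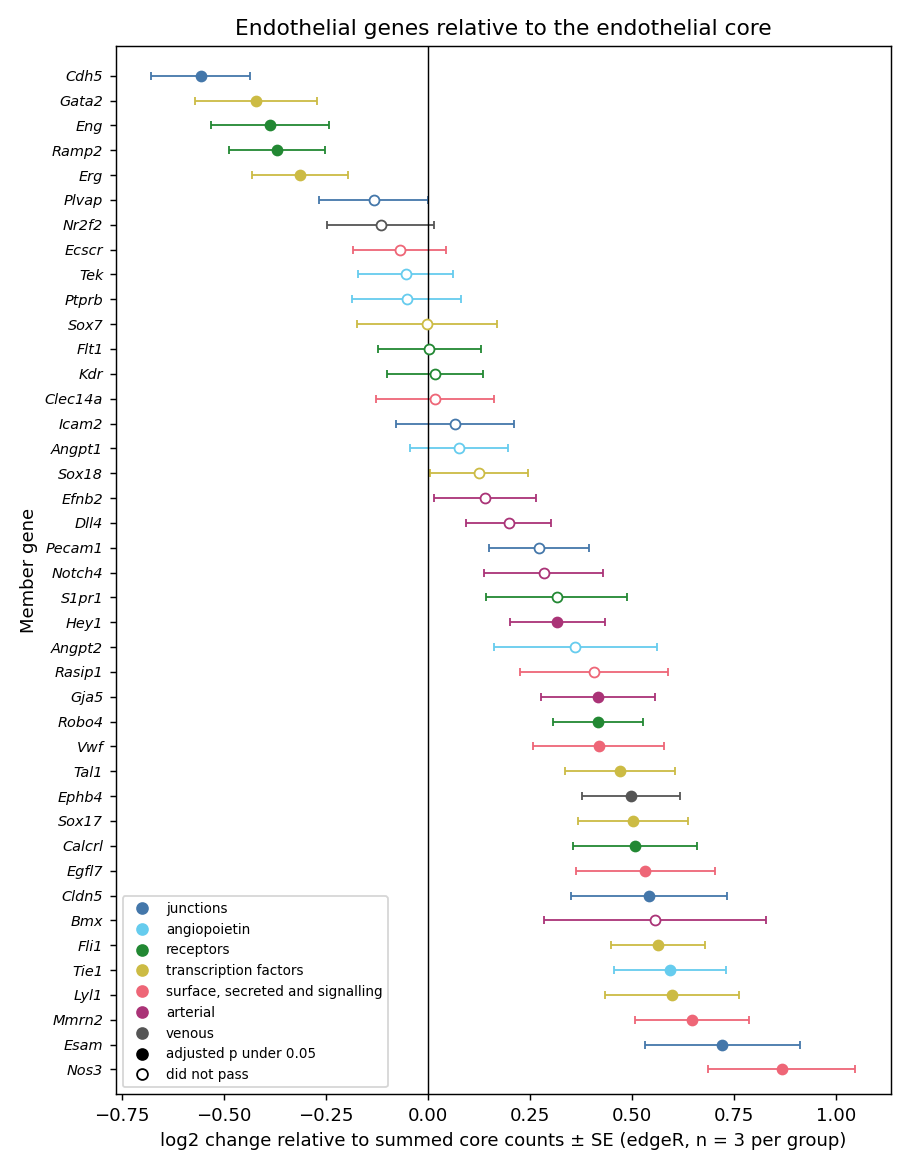
Log2 change of each endothelial gene relative to the summed counts of 10 pan-endothelial genes, silicosis over control, with SE (edgeR, n = 3 per group); filled circles passed an adjusted p of 0.05. Cdh5, Gata2, Eng, Ramp2 and Erg lie below 0 and Nos3 is highest at 0.87. Each of the 10 genes was left out of the sum for its own fit.

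Levels of different genes were compared per base of exon, as TPM, which divides counts by exon length before scaling each library to a common total. In the controls Cdh5 had the highest TPM of the 41 (1189 ± 135, SD, n = 3), followed by Calcrl (1052 ± 164) and Plvap (876 ± 37.1). The control ranges of Cdh5 and Calcrl, and those of Calcrl and Plvap, overlapped, so these neighbours did not differ beyond their spread. In silicosis Calcrl was highest (895 ± 48.1), then Cldn5 (649 ± 100.3) and Cdh5 (539 ± 13.6). At the low end in the controls were Tal1 (25.3 ± 2.32), Bmx (15.3 ± 2.03) and Nos3 (13.7 ± 2.64). Gata2 moved from place 23 to place 31 of 41 and Erg from 21 to 28. In the controls each of these genes overlapped in range with the gene next below it, so these places are not distinct ranks.

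**Figure D4:**
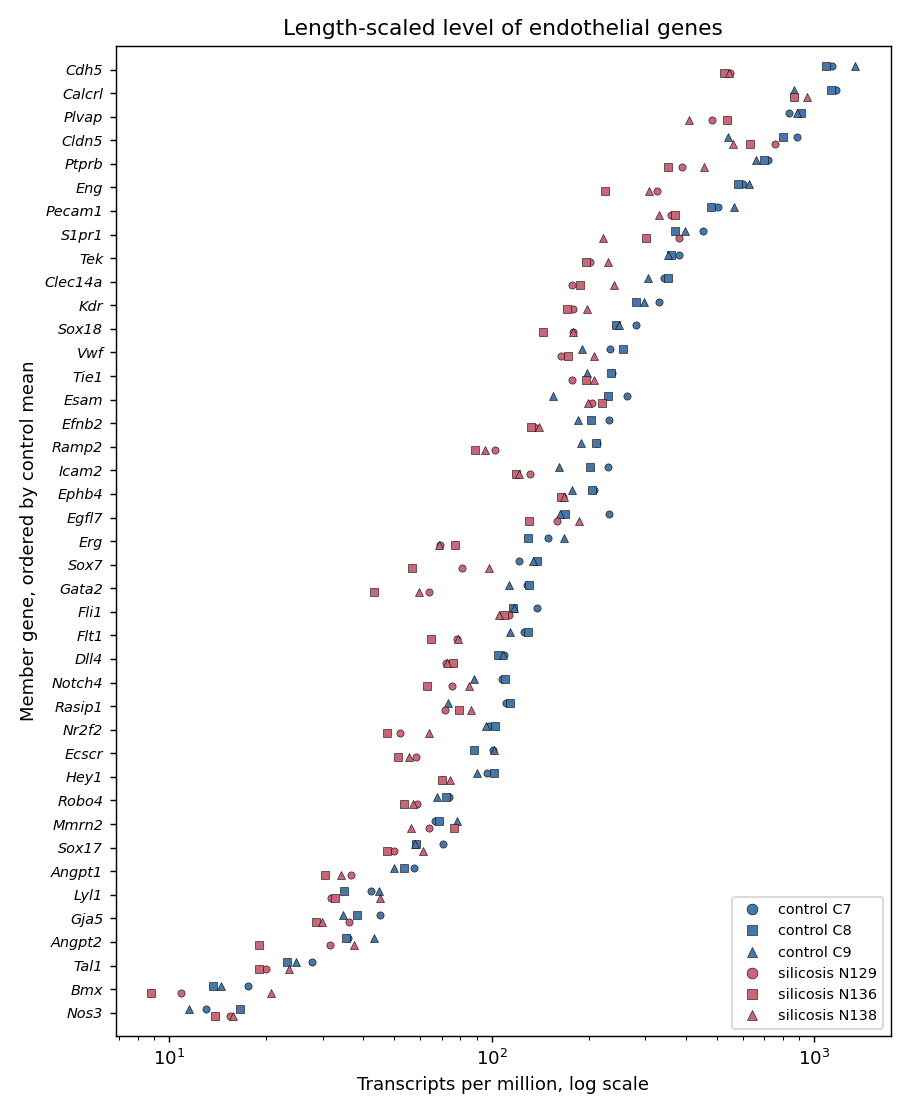
TPM of each endothelial gene in each library on a log axis, ordered by the control mean; blue points are control and red points silicosis libraries. The genes span from Cdh5 near the top, with a control mean of 1189 TPM, to Nos3, with 13.7 TPM.

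Other genes of the same pathways were read from a list of 78 that holds no member. Of these 42 fell, 6 rose and 30 did not pass, with a median of -0.38, where 16.5% of all tested mRNAs fell and 15.3% rose. The lowest p among those that fell belonged to Vegfd, a growth factor for lymphatic and blood vessels, with 52.5, 46.6 and 50.4 CPM in the controls and 17.8, 14.7 and 18.5 CPM in silicosis (-1.55, SE 0.12, edgeR adjusted p = 6.16e-05). Acvrl1, the ALK1 receptor that signals with endoglin, had 765, 784 and 741 CPM in the controls and 371, 332 and 374 CPM in silicosis. It fell by 1.09 (SE 0.09, edgeR adjusted p = 9.85e-05). Jup, or plakoglobin, which links cadherins to the cytoskeleton in endothelium and epithelium, fell by 0.84 (SE 0.09, edgeR adjusted p = 0.000253).

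By pathway, 5 of 8 VEGF and neuropilin genes fell, 5 of 8 of the BMP9 and ALK1 axis, 5 of 7 of nitric oxide and prostacyclin signalling, 4 of 11 Notch genes, 6 of 12 junction partners and 6 of 10 ETS and other vascular factors. In the Slit and angiopoietin-related list 5 of 6 fell and in the ephrin list 4 of 6. Of the remaining lists, 1 of 5 sphingosine 1-phosphate genes fell (median -0.16), and of 5 adrenomedullin and apelin genes 1 fell and 1 rose (median 0.087). These counts are near the shares over all tested mRNAs, of which 16.5% fell and 15.3% rose. Vegfa, the ligand of Kdr and Flt1, fell from 782 ± 61.3 to 431 ± 85.4 CPM (SD, n = 3). Of the 6 genes that rose, the 3 with the lowest p were Rbpj, the DNA-binding effector of Notch, Angptl4, a lipase inhibitor, and Pgf, a ligand of Flt1. Rbpj went from 118 ± 3.38 to 159 ± 12.9 CPM, with 24.3% of its windows shared with other transcripts, and did not pass against a minimum fold of 1.2 (edgeR adjusted p = 0.064). Angptl4 had 12.05, 16.8 and 19.4 CPM in the controls and 30.7, 53.1 and 27.7 CPM in silicosis (1.21, SE 0.26, edgeR adjusted p = 0.00775). Pgf had 3.40, 4.14 and 3.21 CPM in the controls and 5.06, 9.17 and 6.26 CPM in silicosis (0.93, SE 0.25, edgeR adjusted p = 0.0207), a call that ended without C7, C9 or N136 (edgeR adjusted p = 0.0695, 0.0691 and 0.0676). Without C7 the number of pathway genes that rose was 2, and it was 3 without C9, N129 or N136. Ramp3, the alternative partner of Calcrl, was the fifth by p of those that rose, from 2.44 ± 0.295 to 4.27 ± 0.894 CPM.

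Markers of other cell types in the same libraries were read beside these results, where 16.5% of all tested mRNAs fell and 15.3% rose. Alveolar type 1 epithelial markers summed to 6201 to 6702 CPM in the controls and 3573 to 4143 CPM in silicosis, and 8 of 10 fell. The 8 include Vegfa, which is also counted among the VEGF and neuropilin genes above. Fibroblast markers went from 3891 to 4062 CPM in the controls to 1458 to 1953 CPM, and 7 of 10 fell. The 7 were Tcf21, Npnt, Pdgfra, Fgfr4, Limch1, Inmt and Col13a1. Dpt (-0.51), Pi16 (0.39) and Dcn (0.49) did not pass, so not every fibroblast marker shared the fall of the sum. Alveolar type 2 markers overlapped, at 17130 to 19945 and 15840 to 23498 CPM, with 1 of 8 lower. Leukocyte markers rose in 6 of 10 and summed to 1372 to 1784 CPM in the controls and 1978 to 2604 CPM in silicosis. The part of these other cells in the endothelial values was not tested.

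**Figure D5:**
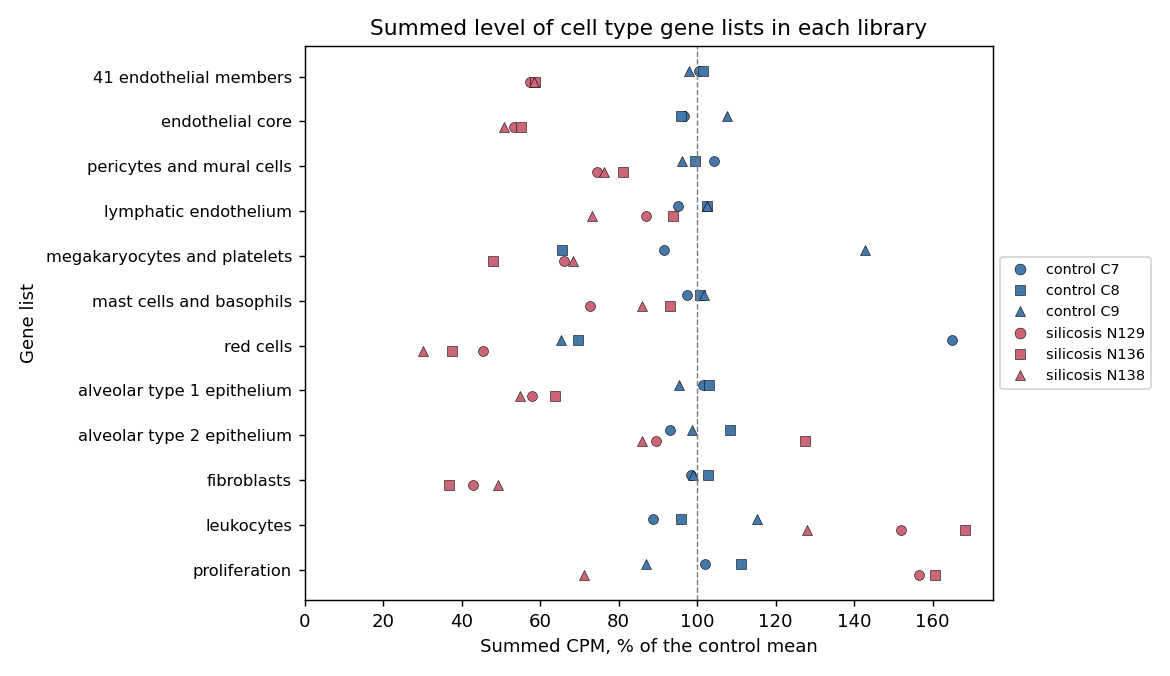
Summed CPM of each gene list in each library as a percentage of the list's control mean; blue points are control and red points silicosis libraries. The 41 endothelial genes of the silicosis libraries lie at about 58.2% of the control mean, alveolar type 1 and fibroblast lists are also lower, and the leukocyte list is higher.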

How the data were processed

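Whole-lung mRNA was analysed in 3 control and 3 silicosis libraries, grouped by the titles in the labels. The deposited mRNA table holds raw whole-number counts per gene, made by the authors. The authors' deposited comparison table holds log2 fold changes and adjusted p-values for the same genes. The submitters' processing notes name Trimmomatic 0.39, HISAT2, Bowtie2, featureCounts 2.0.0, DESeq2 1.36.0 and GRCm39, with no role or order. The sources used here give neither annotation nor strand setting, so overlapping antisense genes cannot be told apart.

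All mRNAs were fitted together with edgeR 4.0.16 in R 4.3.3: filterByExpr, TMM scaling, the two-sided quasi-likelihood F test and Benjamini-Hochberg adjustment over 15808 genes, with a threshold of 0.05. The SE is the size of the log2 fold change divided by the square root of F. A second fit used summed core counts as the offset. Libraries of a group were distinct (chi-square per degree of freedom between 14.1 and 73.8). TPM used exon lengths of GENCODE M21 (GRCm38), found for 17553 of 17973 genes, and shared windows were 50 bases taken every 5 bases of the longest transcript.

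The members, lists, core and tests were chosen with earlier results of these data known. Genes with values in every library were set by a rule: in each role list the 2 lowest p among called genes and the largest change, any gene called against the majority, and both angiopoietins, and in the pathway list the 3 lowest p in each direction; others were added after their values were seen. Ratios were compared by exact permutation over libraries. Also tried were scaling by DESeq2 size factors, all genes unfiltered, DESeq2 1.42.0 and limma-voom (limma 3.58.1) as tests, a minimum fold of 1.2, each library left out and, for the core, a geometric mean. Removing a GC trend and leaving out genes with 10% or more shared windows were chosen after seeing the data. The tests were tested on simulated counts. Protein identities were not computed here. The lncRNA and circRNA tables were not used here.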

Additional observations from a re-analysis of the deposited data

How the results depend on the processing

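Counts of members that fell were 34 to 35 with DESeq2 size factors, without a filter, with DESeq2 and with limma-voom, 23 with a minimum fold of 1.2, 30 with the GC trend removed, and 24 to 35 with 1 library left out. Over all mRNAs, 2602 were lower in the main fit, and 2598 to 2873 with DESeq2 size factors, no filter, DESeq2 or limma-voom. Lower calls over all mRNAs were 1559 with the minimum fold, 2388 with the GC trend removed and 1867 to 2633 with 1 library left out. Of the 35 members that share under 10% of their windows, 29 fell. The 34 members that fell included 23 that were called in all 12 settings, and 0 members were called higher in any of these. The silicosis log2 fold change of Nos3 turned in 2 of 12 settings, to 0.13 without C8 and to 0.080 with the GC trend removed, and lay between -0.14 and 0.13 with 1 library left out; the cause was not tested. The members lower relative to the endothelial core were 5 in each setting with all libraries, and 1 to 4 with 1 library left out. The 16 higher relative to it became 12 with a geometric mean of the core and 13 to 19 with 1 library left out. Of the 21 called either way, 12 were called in all 10 settings. Other pathway genes that rose were 2 with a minimum fold of 1.2, a stricter test by construction, and 2 to 8 with 1 library left out. Higher calls over all mRNAs were 1364 and 1617 to 2580 in these settings, and 2421 in the main fit. No paired analysis was possible because the groups share no replicate numbers. With 3 libraries a group, single-value permutation tests cannot go below 0.1.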

Other observations

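Lymphatic and mural markers, read only as a check on the endothelial genes, did not follow one direction. Prox1, the factor that defines lymphatic endothelium, rose from 8.87, 8.998 and 10.8 CPM in the controls to 14.7, 16.4 and 14.9 CPM in silicosis (log2 fold change 0.68, SE 0.14, edgeR adjusted p = 0.00539). Reln, also made by lymphatic endothelium, rose by 0.47 (SE 0.11, edgeR adjusted p = 0.0115). Lyve1, a hyaluronan receptor of lymphatics and of some macrophages, fell by 1.03 (SE 0.11, edgeR adjusted p = 0.000264), and Flt4, a VEGF receptor of lymphatics and lung capillaries, fell by 0.63 (SE 0.11, edgeR adjusted p = 0.00257). Of the 8 lymphatic markers 3 rose, Prox1, Reln and Nts (2.89, with a mean under 1 CPM), and 2 fell, Lyve1 and Flt4. Over all tested mRNAs, 15.3% rose and 16.5% fell. The median log2 fold change of the 8 was 0.25. Flt4 is also counted among the VEGF and neuropilin genes above. The summed lymphatic list was 563 to 606 CPM in the controls and 433 to 555 CPM in silicosis. Within that sum Lyve1 had 207 to 245 CPM in the controls and 97.7 to 119 CPM in silicosis.

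Among pericyte and mural markers, Rgs5, a regulator of G protein signalling in pericytes, had 11.03, 9.55 and 10.6 CPM in the controls and 43.3, 34.5 and 32.7 CPM in silicosis, a rise of 1.82 (SE 0.14, edgeR adjusted p = 6.16e-05). Higd1b, another pericyte marker, fell by 1.01 (SE 0.22, edgeR adjusted p = 0.00845), and Pdgfrb did not pass (-0.22, SE 0.09, edgeR adjusted p = 0.0798). Of the 10 markers 4 fell, Higd1b, Cox4i2 (-1.29), Des (-0.41) and Gucy1a1 (-0.75), and 2 rose, Rgs5 and Abcc9 (0.47). Over all tested mRNAs, 16.5% fell and 15.3% rose. Gucy1a1 is also counted among the nitric oxide and prostacyclin genes above. The sum of the 10 markers was 1004 to 1088 CPM in the controls and 777 to 847 CPM in silicosis, without overlap. The markers given here with values in every library were chosen after their values were seen.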
